A study of Mus musculus with 9 samples.

Results

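Wnt signalling was followed across the genes of its ligands, receptors, secreted modulators, transducers and feedback targets in cultured mouse astrocytes. Members were taken by name alone: all numbered Wnt, Fzd, Sfrp and Dkk genes, together with Lrp5, Lrp6, Ndp, Wif1, Ror1, Ror2, Ryk, the Rspo genes, Axin1, Axin2, Lef1, Tcf7, Ctnnb1, Nkd1, Nkd2, Znrf3, Rnf43 and Notum. Of 58 mouse symbols that fit, 51 had a ratio in at least 1 of 2 tables, out of 20075 genes in all. Fzd10, Rspo1, Sfrp5, Wif1, Wnt3, Wnt3a and Wnt9b had no ratio in the values used here. The cells came from brain and were Ink4a-/- in every group, the control included; Ink4a encodes an inhibitor of cell cycle kinases. One group had received a puromycin-resistance pcDNA vector for HA-tagged JICD1, the intracellular fragment of the Notch ligand Jagged1. Another had received a pcDNA puromycin vector for NICD (NICD1 in the sample titles), the intracellular fragment of the receptor Notch1, which enters the nucleus and activates genes with RBPJ, and the control had the pcDNA puromycin vector alone. Each of the 3 groups had 3 RNA-seq libraries, and neither separate cultures nor the time after transfection is given in the sources used here.

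Wnt proteins are secreted lipid-modified ligands that bind Frizzled receptors. With the co-receptors Lrp5 or Lrp6 they stop the destruction of β-catenin, which then acts with TCF and LEF factors on target genes, and some of these targets, such as Axin2, feed back to restrain the pathway. Other ligands and receptors, among them Wnt5a and Ror2, are best known for signalling that does not need β-catenin. In the brain, Wnt7a and Wnt7b made by neural cells act on endothelial cells during the growth of vessels, and norrin, encoded by Ndp, acts through Fzd4 in the retina and cerebellum.

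The values are 1 log2 ratio over control and 1 score between 0 and 1 per gene and construct. Values of single libraries were not used here. The ratios therefore have no replicate error and no test, their depth is unknown, and higher and lower name a direction only. A gene with a score of 0.8 or more is termed called; this is a threshold on the authors' score and not a significance level. Where a ratio and its score fall on the curve traced by genes at a common lowest value, 1 group was placed at that floor by inference, and no fold is given. In these bulk samples, fewer cells that express a gene and less RNA per cell cannot be told apart. As a check of the constructs, the authors' deposited tables gave Jag1 a log2 ratio of -1.39 with JICD1 and 1.36 with NICD1, and Notch1 1.33 and 1.77. The Notch target genes Hes1 (-0.54 with JICD1 and 1.58 with NICD1) and Nrarp (-0.96 and 2.84) were higher in the authors' deposited NICD1 table and lower in the JICD1 table. The Jag1 value runs against the label, so the group is named here as the libraries labelled JICD1, and it is not known whether construct transcripts were counted.

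In the libraries labelled JICD1, 6 of the 42 members with a ratio were called (14.3%), beside 2.81% of all genes of that table. Of these, 1 was higher and 5 were lower, beside 1.07% and 1.74% of all genes. With NICD1, 9 of 49 were called (18.4%), beside 2.61% of all genes, 4 higher and 5 lower beside 1.64% and 0.97%. In all, 12 members were called in at least 1 comparison, and Wnt7b, Wnt9a and Wnt10a were called in both, each of them lower. The median log2 ratio of the members was -0.13 with JICD1, against 0.05 over all genes, and 0.21 with NICD1, against -0.02. The NICD1 median was -0.009 over the 40 members with a ratio in both tables. All 9 members with a ratio in the NICD1 table alone lay above 0, as did 1098 of the 1104 genes of that kind in the whole table. Wnt8a and Nkd2, with a JICD1 ratio alone, also lay above 0, as did 779 of 788 such genes. By size alone, 9 members reached a log2 ratio of 1 and 14 reached -1 with JICD1 (14.5% and 14.4% of all genes did). With NICD1 these counts were 18 and 9 (16.6% and 12.1% of all genes), and 8 of the 18 had a control placed at the floor.

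**Figure D1:**
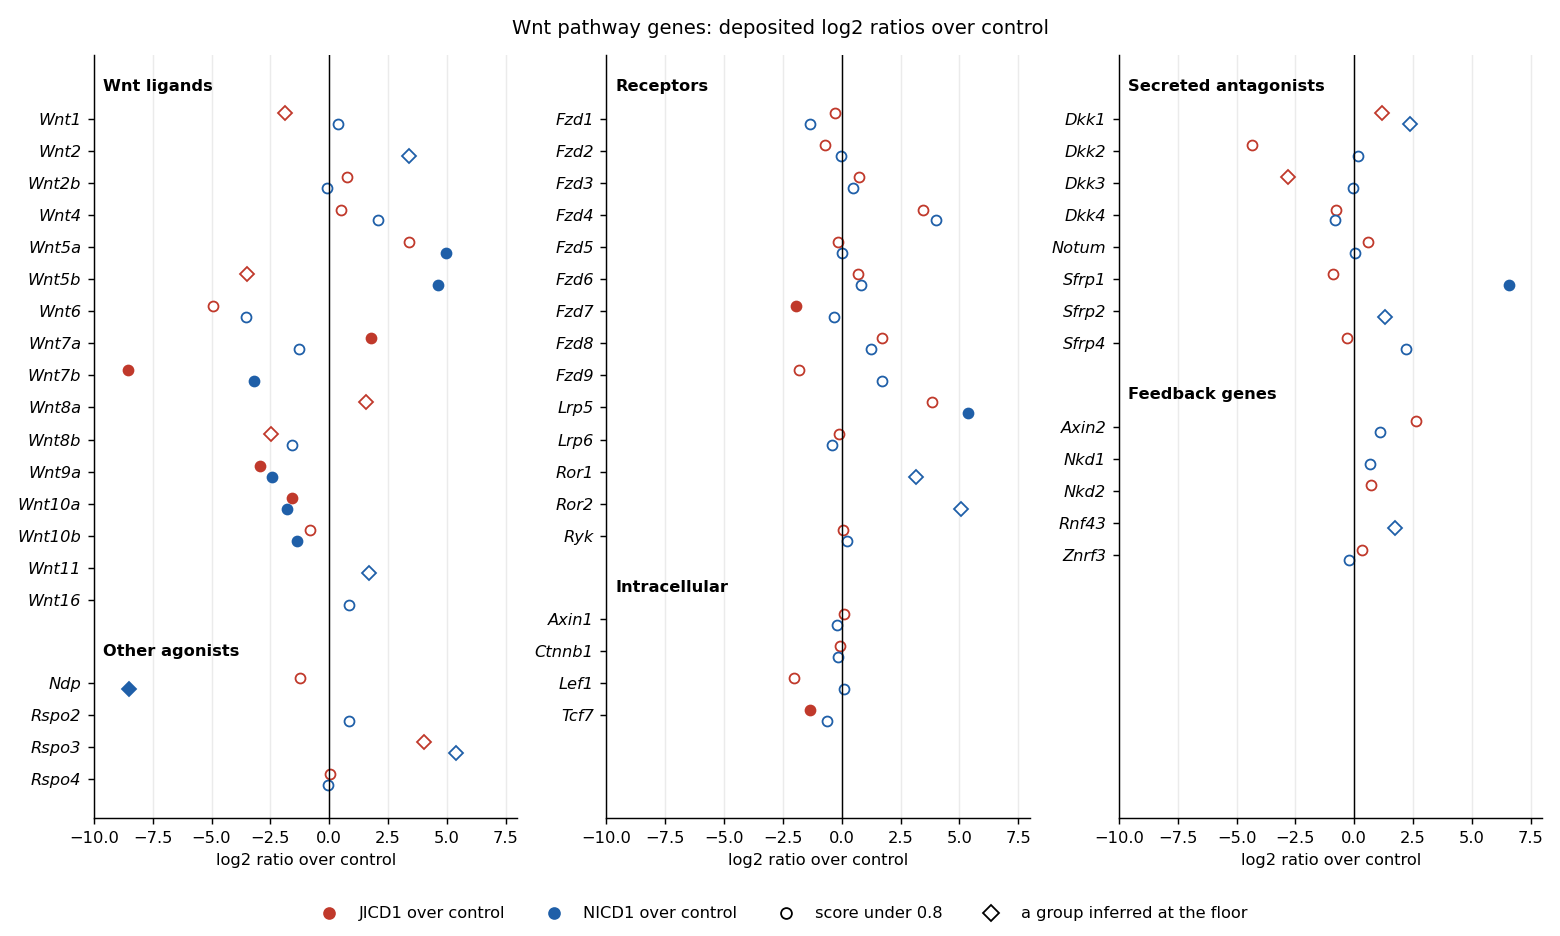
Deposited log2 ratio over control (x axis) of each member (rows), grouped by role, with JICD1 in red and NICD1 in blue, filled symbols for a score of 0.8 or more and diamonds for a group inferred at the floor. Most filled symbols left of 0 are ligands, and the filled symbols right of 2.5 are all NICD1 values (Wnt5a, Wnt5b, Lrp5 and Sfrp1).

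Of the Wnt ligand genes with a ratio, 8 of 13 lay below 0 with JICD1, 7 of them at -1 or lower. With NICD1, 8 of 15 lay below 0, again 7 of them at -1 or lower. Over all genes, 8627 of 18971 lay below 0 with JICD1 and 9926 of 19287 with NICD1. The shares of all genes at -1 or lower were 14.4% and 12.1%. Among the 7 with JICD1, Wnt1, Wnt5b and Wnt8b had the JICD1 group inferred at the floor. Wnt7b had the lowest ligand ratio of the JICD1 table, and Wnt6 that of the NICD1 table. Wnt7b was at a log2 ratio of -8.54 with JICD1 (score 0.988, 371-fold lower than control) and -3.21 with NICD1 (score 0.911, 9.23-fold lower) in the authors' deposited tables. The score of Wnt7b in the JICD1 table lay 0.094 above the floor curve, so its JICD1 group was not placed at the floor. Wnt9a had ratios of -2.96 (7.76-fold lower, score 0.862) with JICD1 and -2.44 (5.42-fold lower, score 0.848) with NICD1 in the authors' deposited tables. Wnt10a was at -1.59 (score 0.846) with JICD1 and -1.80 (score 0.862) with NICD1 in the same deposited tables of the authors. These 3 ligands thus lay below control by 3-fold or more in all of their comparisons, with scores well above the floor curve except for Wnt7b in the JICD1 table.

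Wnt10b, a ligand that acts against fat cell formation, was called only by its NICD1 score, with log2 ratios of -0.80 (score 0.748) with JICD1 and -1.37 (score 0.828) with NICD1 in the authors' deposited tables. Whether the values of Wnt10b differ between the constructs was not tested. Wnt6 was lower by more than Wnt10a but was not called, at -4.92 (score 0.718) with JICD1 and -3.53 (score 0.680) with NICD1 in the authors' deposited tables. Wnt6 and Wnt10a are neighbouring genes on mouse chromosome 1, and both lay below control in both tables. Wnt10b and Wnt1 are neighbours on chromosome 15. There Wnt1, at -1.89 with JICD1 (group inferred at the floor) and 0.36 with NICD1 in the authors' deposited tables, lay on opposite sides of control. Wnt9a lies beside Wnt3a on chromosome 11, and Wnt3a had no ratio.

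Wnt7a, the close relative of Wnt7b, lay on the other side of control with JICD1. Its log2 ratio was 1.76 with JICD1 (score 0.813, 3.40-fold higher) and -1.26 with NICD1 (score 0.643) in the authors' deposited tables. Wnt7a was the single member called higher with JICD1. The difference of the ratios of Wnt7a, JICD1 minus NICD1, was 3.03, and the same difference for Wnt7b was -5.33, so the related ligands stood apart in opposite directions.

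Wnt5a and Wnt5b, known for β-catenin-independent signalling, had the highest NICD1 ratios of the ligands. Wnt5a, which acts through Ror receptors on cell movement, had a log2 ratio of 3.38 with JICD1 (score 0.764, 10.4-fold higher) and 4.97 with NICD1 (score 0.940, 31.2-fold higher) in the authors' deposited tables. Wnt5b lay on opposite sides of control, at -3.49 with JICD1, whose group was placed at the floor, and 4.61 with NICD1 (score 0.842, 24.4-fold higher) in the authors' deposited tables. Wnt11 had no ratio with JICD1 and 1.71 with NICD1 in the authors' deposited table, its control being inferred at the floor. Of the receptor genes of this branch, Ror2 stood at 5.08 (score 0.524) and Ror1 at 3.16 (score 0.298) in the authors' deposited NICD1 table, both with a control at the floor and no JICD1 ratio. Ryk, an atypical Wnt receptor gene, stayed near control at 0.04 with JICD1 and 0.21 with NICD1 in the authors' deposited tables. These genes were set side by side after their values were seen, and the positive ratios of Wnt11, Ror1 and Ror2 are of the kind that nearly all genes in the NICD1 table alone have.

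The other ligands were not called. Wnt4 had a log2 ratio of 0.51 with JICD1 and 2.06 with NICD1, and Wnt2b 0.77 and -0.09, in the authors' deposited tables. Wnt8b lay below control with both, at -2.48 with JICD1 (inferred at the floor) and -1.60 with NICD1 in the authors' deposited tables. Wnt2, Wnt16 and Wnt8a each had a ratio in 1 table, Wnt2 at 3.40 and Wnt16 at 0.84 with NICD1 and Wnt8a at 1.55 with JICD1, in the authors' deposited tables. Their scores of 0.324, 0.160 and 0.182 lay on or beside the floor curve. Of the 12 ligands with both ratios, 33.3% were called with JICD1 and 50% with NICD1, beside 2.81% and 2.61% of all genes. Over these 12 the median was -1.74 with JICD1 (1 called higher and 3 lower) and -1.32 with NICD1 (2 called higher and 4 lower). Over every ligand with a ratio it was -1.59 with JICD1 (13 genes) and -0.09 with NICD1 (15 genes, which add Wnt2, Wnt11 and Wnt16 and leave out Wnt8a).

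**Figure D2:**
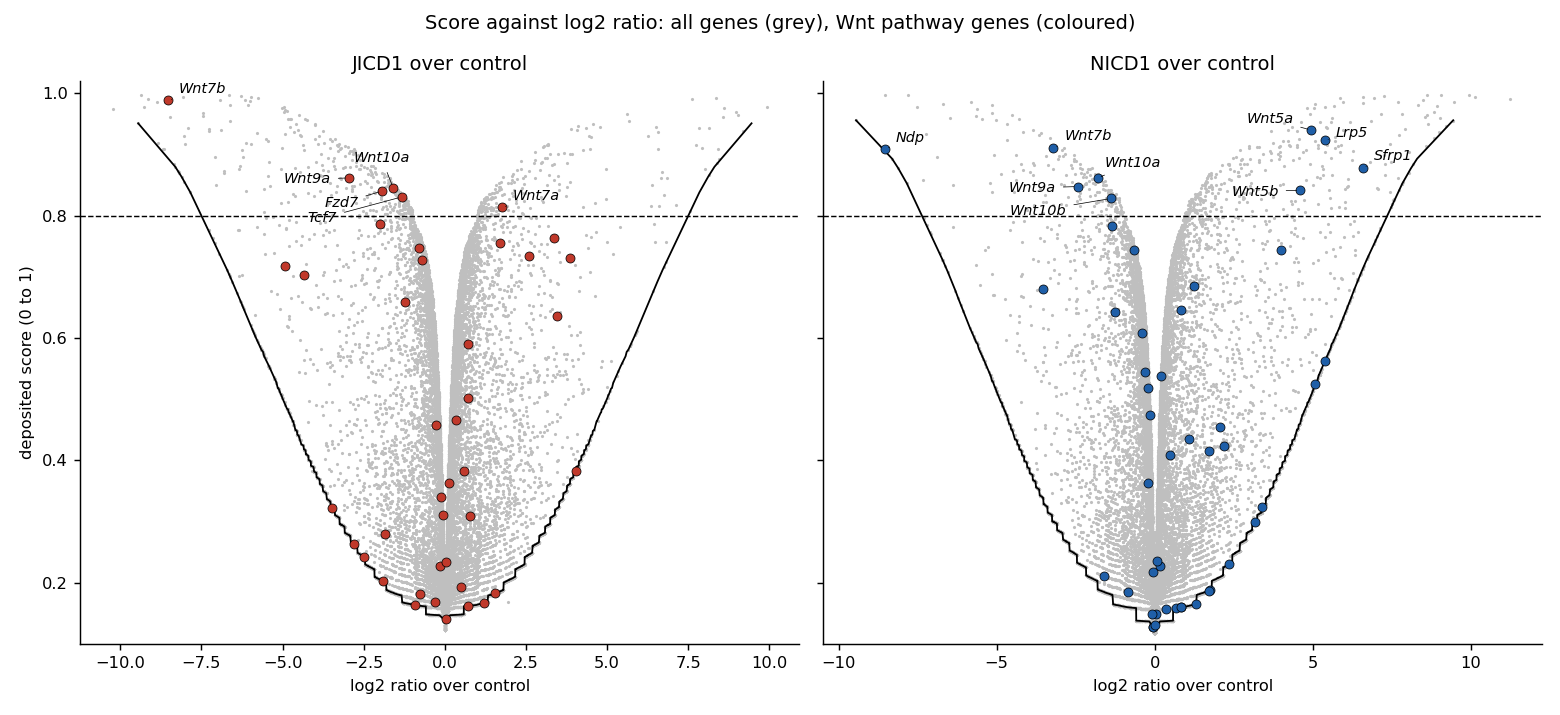
Deposited score (y axis) against log2 ratio over control (x axis) for all genes (grey) and the Wnt pathway genes (coloured), JICD1 on the left and NICD1 on the right. The dashed line is the score of 0.8, named genes lie at or above it, and the black line is the floor curve, on which a gene has 1 group at the common lowest value; Ndp with NICD1 lies on it, and Wnt9a, Wnt10a, Tcf7 and Fzd7 lie far above it.

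Promoter sequence is shown for the called members whose 250 bases before a start hold a motif of the factors that the pathways use. RefSeq promoter windows (build GRCm38.p6) were found for 32 of the 51 members and for 7 of the 12 called. The motifs were the TCF and LEF core, searched as CTTTGA and CTTTGT, and the RBPJ site, searched as GTGGGAA, on both strands. No printed matches overlap. The TCF and LEF letters occurred in 11 of 41 member windows (26.8%), beside 27.6% of 32851 windows of all genes, and the RBPJ letters in 1 of 41 (2.44%), beside 5.42%. A match describes letters and is not a bound site. The 4 windows below are Wnt9a (chr11:59306680-59306929, plus strand), Wnt5b at the most downstream of its 3 listed starts (chr6:119449387-119449636, minus strand), Fzd7 (chr1:59481897-59482146, plus strand) and Ndp (chrX:16911775-16912024, minus strand). GENCODE places the Wnt5b window inside the gene and outside its exons, and the Fzd7 and Ndp windows outside any gene, and the last 2 bases of the Wnt9a window are in an exon of Wnt9a. Capitals mark the motif letters, written on the strand of the gene.
Wnt9a: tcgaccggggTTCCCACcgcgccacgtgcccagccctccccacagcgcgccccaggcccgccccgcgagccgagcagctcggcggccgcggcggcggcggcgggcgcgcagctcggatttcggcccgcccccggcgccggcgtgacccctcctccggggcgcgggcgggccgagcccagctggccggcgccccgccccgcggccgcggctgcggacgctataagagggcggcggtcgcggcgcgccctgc
Wnt5b: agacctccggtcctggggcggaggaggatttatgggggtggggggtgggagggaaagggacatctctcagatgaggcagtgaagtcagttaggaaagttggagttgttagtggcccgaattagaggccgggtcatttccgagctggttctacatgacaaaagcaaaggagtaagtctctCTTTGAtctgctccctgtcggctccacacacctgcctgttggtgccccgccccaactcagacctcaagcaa
Fzd7: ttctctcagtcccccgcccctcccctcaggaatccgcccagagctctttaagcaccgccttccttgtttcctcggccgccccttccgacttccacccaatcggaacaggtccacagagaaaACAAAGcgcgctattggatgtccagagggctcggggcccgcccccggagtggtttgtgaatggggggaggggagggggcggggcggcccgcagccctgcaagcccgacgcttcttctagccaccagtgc
Ndp: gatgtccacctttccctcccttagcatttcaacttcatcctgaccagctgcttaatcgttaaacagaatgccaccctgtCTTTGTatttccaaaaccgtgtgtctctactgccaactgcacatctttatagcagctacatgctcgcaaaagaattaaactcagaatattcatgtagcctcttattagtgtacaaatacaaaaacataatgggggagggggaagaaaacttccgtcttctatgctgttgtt
Among the 32 members with a window, that of Wnt9a holds the single RBPJ match, on the opposite strand and beginning 240 bases before the start. Wnt9a was lower with both constructs, and a link between the match and its ratios was not tested. The TCF and LEF matches begin 71 bases before the start in Wnt5b, 129 in Fzd7 and 171 in Ndp.

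Of the receptor genes, 1 of 12 was called with JICD1 (8.33%, beside 2.81% of all genes) and 1 of 14 with NICD1 (7.14%, beside 2.61%). Each of these shares rests on 1 gene. Fzd7, a Frizzled used in stem cells and in β-catenin signalling, was the receptor called with JICD1, at a log2 ratio of -1.93 (score 0.840, 3.81-fold lower), and had -0.31 (score 0.545) with NICD1, in the authors' deposited tables. Fzd1 showed the other pattern without a call, at -0.28 (score 0.458) with JICD1 and -1.34 (score 0.784) with NICD1 in the authors' deposited tables. Fzd2 had -0.70 (score 0.728) with JICD1 and -0.04 (score 0.218) with NICD1 in the authors' deposited tables. Fzd8, by contrast, lay above control in both, at 1.70 (score 0.755) and 1.26 (score 0.685) for JICD1 and NICD1 in the authors' deposited tables. Fzd9 was on opposite sides, -1.83 with JICD1 and 1.71 with NICD1 in the authors' deposited tables, with scores of 0.280 and 0.415.

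The co-receptor gene Lrp5 had one of the largest ratios above control. Its log2 ratio was 3.85 with JICD1 (score 0.731, 14.4-fold higher) and 5.38 with NICD1 (score 0.923, 41.7-fold higher) in the authors' deposited tables. Lrp6, which has the same role, stayed close to control at -0.12 with JICD1 (score 0.339) and -0.40 with NICD1 (score 0.608) in the authors' deposited tables. Fzd4 was at 3.45 (score 0.636) with JICD1 and 4.01 (score 0.744) with NICD1 in the authors' deposited tables, and was not called. Fzd3 (0.73 and 0.48), Fzd6 (0.71 and 0.82) and Fzd5 (-0.14 and 0.02) lay within 1 log2 unit of control with JICD1 and NICD1 in the authors' deposited tables. Over the 12 receptor genes with both ratios the median was -0.04 with JICD1 and 0.34 with NICD1; with Ror1 and Ror2 the NICD1 median was 0.65.

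Fzd4 and Lrp5 form, with the tetraspanin Tspan12, the receptor of norrin, and the norrin gene lay below control. Ndp stood at a log2 ratio of -1.23 with JICD1 (score 0.659, 2.35-fold lower) and -8.53 with NICD1 (score 0.909), with the NICD1 group placed at the floor, in the authors' deposited tables. Tspan12 stood at -0.70 with JICD1 and 1.14 with NICD1 in the authors' deposited tables and was not called. With NICD1, Ndp had the lowest ratio of all members, of a size not determined at the floor, while Fzd4 and Lrp5 lay above control. Fzd4 and Lrp5 also lay above control with JICD1, at 3.45 and 3.85. These 4 genes were set side by side after their values were seen.

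The R-spondin genes, whose products strengthen Wnt signals by removing the ligases Znrf3 and Rnf43 from the membrane, were not called. Rspo3 was at 4.04 with JICD1 (score 0.382) and 5.40 with NICD1 (score 0.562) in the authors' deposited tables, with a control inferred at the floor from the NICD1 table. Rspo4 was at 0.04 and -0.05 for JICD1 and NICD1, and Rspo2 had 0.83 with NICD1 alone, in the authors' deposited tables. The scores of Rspo4 and Rspo2 lay on the floor curve, with ratios under the limit of 1 for an inference.

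Of the genes of secreted antagonists, 7 had both ratios. Of these, 5 lay below 0 with JICD1 (median -0.76) and 5 above 0 with NICD1 (median 0.16). With Sfrp2, which has a NICD1 ratio alone, the NICD1 median was 0.74. Over all genes, 8627 of 18971 lay below 0 with JICD1 and 9361 of 19287 above 0 with NICD1. Sfrp1 with NICD1 was the single call (1 of 8, 12.5%, beside 2.61% of all genes). Sfrp1, a Frizzled-like decoy that binds Wnt proteins, had a log2 ratio of -0.92 with JICD1 (score 0.163) and 6.58 with NICD1 (score 0.879) in the authors' deposited tables. Its JICD1 score lay on the floor curve but its ratio was under the limit of 1 for an inference, so its control may be near the lowest value and no fold is given. Sfrp4 was not called and stood at -0.31 with JICD1 and 2.20 with NICD1 (score 0.423) in the authors' deposited tables, and Sfrp2 had a ratio only with NICD1 (1.31 in the authors' deposited table, control inferred at the floor). Among the Dickkopf genes, whose best-known products block Lrp5 and Lrp6, Dkk2 was at -4.35 with JICD1 (score 0.703, 20.3-fold lower) and 0.16 with NICD1 (score 0.227) in the authors' deposited tables. Dkk3 had -2.80 with JICD1, inferred at the floor, and -0.04 with NICD1 in the authors' deposited tables. Dkk1 lay above a control at the floor in both, at 1.19 with JICD1 and 2.36 with NICD1, and Dkk4 had -0.76 and -0.83, in the authors' deposited tables. Notum, encoding a secreted enzyme that strips the lipid from Wnt proteins, was at 0.59 with JICD1 and 0.05 with NICD1 in the authors' deposited tables.

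Inside the cell, the β-catenin gene itself hardly differed from control. Ctnnb1 had log2 ratios of -0.07 with JICD1 (score 0.311) and -0.15 with NICD1 (score 0.474) in the authors' deposited tables, and Axin1, a scaffold of the complex that destroys β-catenin, had 0.11 and -0.22. Tcf7 and Lef1 encode DNA-binding partners of β-catenin. Tcf7 was called at -1.33 with JICD1 (score 0.831, 2.51-fold lower) and had -0.64 with NICD1 (score 0.743) in the authors' deposited tables. Lef1 had -2.01 with JICD1 (score 0.787, just under the threshold, 4.04-fold lower) and 0.09 with NICD1 (score 0.235) in the authors' deposited tables. Tcf7 and Lef1 are also target genes of the pathway in several tissues.

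Among the feedback genes, Axin2, a widely used readout of β-catenin activity, was above control at 2.60 with JICD1 (score 0.734, 6.08-fold) and 1.09 with NICD1 (score 0.434, 2.13-fold) in the authors' deposited tables, and was not called. Znrf3 had 0.34 and -0.21 for JICD1 and NICD1 in the authors' deposited tables. Nkd2, whose product binds Dishevelled, had 0.72 (score 0.162) with JICD1 alone in the authors' deposited table. With NICD1 alone, its relative Nkd1 had 0.66 (score 0.159) and Rnf43 1.74 (score 0.187, control inferred at the floor) in the authors' deposited table. The scores of Nkd1 and Nkd2 also lay on the floor curve, with ratios under the limit of 1 for an inference. The ratio of Axin2 thus pointed up and that of Lef1 down in the libraries labelled JICD1. No feedback gene was called, 0 of 3 with JICD1 and 0 of 4 with NICD1, beside 2.81% and 2.61% of all genes. The list is too short for a count of 0 to differ from those shares, and no p-values exist for these tables.

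Both tables share the control, so the difference of their ratios compares the constructs directly, with no score and no test. Among the 40 members with both ratios, JICD1 stood lower than NICD1 by 1 log2 unit or more for 16 and higher for 4, beside 13.6% and 10.6% of all genes. The median difference was -0.54, against 0.04 over all genes, and -0.16 over the 33 members without a group at the floor. Among these 33, JICD1 stood lower by 1 log2 unit or more for 11 and higher for 3. Differences far below 0 included those of Wnt5b (-8.10), Sfrp1 (-7.50), Wnt7b (-5.33) and Dkk2 (-4.51). The 4 at 1 or more were Ndp (7.29), Wnt7a (3.03), Axin2 (1.51) and Fzd1 (1.06). The JICD1 side of Wnt5b and the NICD1 side of Ndp were inferred at the floor, and Sfrp1 may be near it, so the order of these sizes is not determined. Antagonist genes had a median difference of -2.51 (7 genes), ligands -1.14 (12 genes) and receptors -0.16 (12 genes). The antagonist median includes Dkk1 and Dkk3, and the ligand median Wnt1, Wnt5b and Wnt8b, each with a group inferred at the floor.

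**Figure D3:**
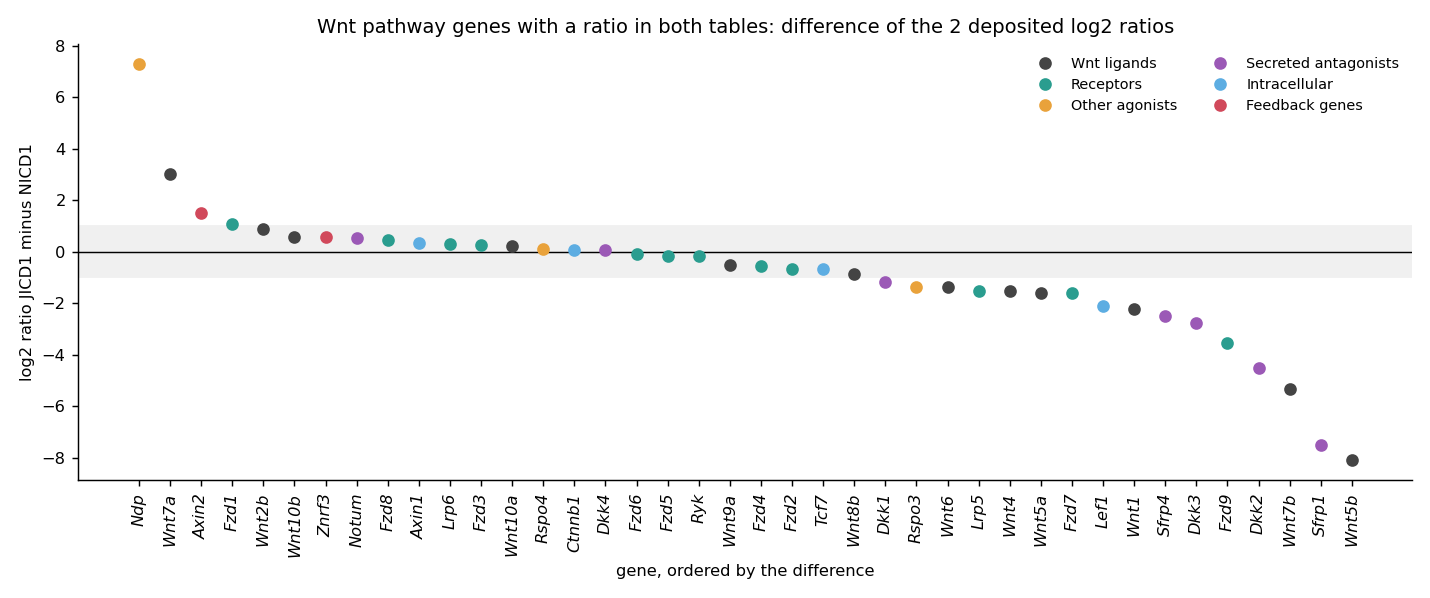
Difference of the deposited log2 ratios, JICD1 minus NICD1 (y axis), for the 40 members with both ratios, ordered from high to low and coloured by role. The grey band spans 1 log2 unit either side of 0; 4 genes lie above it, led by Ndp, and 16 below it, ending with Wnt5b.

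Beyond the members, 73 further pathway gene names were listed by role, with Amer1 also under its older name Wtx. Of the genes so named, 67 had a ratio with JICD1 and 66 with NICD1. With JICD1, 2 were called higher and 3 lower (7.46%, beside 2.81% of all genes). With NICD1, 2 were called higher and 1 lower (4.55%, beside 2.61% of all genes). The medians were -0.004 with JICD1 and -0.02 with NICD1. Co-receptors and binding partners held 4 of the 5 calls with JICD1. Adgra2, which with Reck makes endothelial cells respond to Wnt7a and Wnt7b, had a log2 ratio of -6.02 with JICD1 (score 0.987) and -0.79 with NICD1 (score 0.752) in the authors' deposited tables. Reck itself was at 1.62 with JICD1 (score 0.516) and 0.24 with NICD1 (score 0.193) in the authors' deposited tables. Ptk7, a co-receptor of planar polarity signalling, was at -4.23 with JICD1 (score 0.880) and 0.71 with NICD1, and the R-spondin receptor gene Lgr6 at -6.33 (score 0.876) and -2.43 (score 0.766), in the authors' deposited tables. Gpc4, a glypican that binds Wnt proteins at the cell surface, was called higher with both constructs, at 8.96 (score 0.970) with JICD1 and 8.63 (score 0.964) with NICD1 in the authors' deposited tables.

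Of 23 cytoplasmic transducers with a ratio, 0 were called with JICD1 and 1 with NICD1 (4.35%), beside 2.81% and 2.61% of all genes. The call was Cxxc5, encoding a Dishevelled-binding inhibitor, at -0.85 with JICD1 and 1.22 with NICD1 (score 0.814) in the authors' deposited tables. The medians of this list were -0.004 with both constructs, and the Dishevelled, Gsk3 and casein kinase genes all lay within 1 log2 unit of control. Among 14 nuclear factors 1 was called with JICD1 (7.14%) and 0 with NICD1. That factor was Tcf7l1, often a repressor of Wnt targets, at 2.61 with JICD1 (score 0.813) and 1.20 with NICD1 (score 0.571) in the authors' deposited tables. Of 7 further inhibitors, 0 were called with JICD1 and 1 with NICD1 (14.3%). That gene was Apcdd1, at -1.18 (score 0.811) with NICD1 and -0.99 (score 0.772) with JICD1 in the authors' deposited tables. Among 10 planar polarity genes none was called with either construct, with medians of 0.27 for JICD1 and 1.19 for NICD1. The NICD1 median includes Celsr2 at 3.98, with a control at the floor, and Celsr3 at -1.17, with its NICD1 group at the floor. Celsr1, a large cadherin of that system, was at 0.26 with JICD1 (score 0.147) and 6.20 with NICD1 (score 0.787) in the authors' deposited tables. The JICD1 ratio of Celsr1 was under the limit of 1 for an inference, but its low score means that its control may be near the lowest value.

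Of the listed targets of β-catenin outside the members, 0 of 16 were called with JICD1, beside 2.81% of all genes. The median was -0.25, and the authors' deposited table has no p-value. At that share a count of 0 among 16 genes does not set the targets apart. With NICD1, 3 of 19 were called higher and 1 lower (21.1%, beside 2.61% of all genes). The NICD1 median was -0.01, or -0.06 over the same 16. The calls with NICD1 were Msx2 at 7.84, Ccn5 at 2.10, Ccn4 at 0.98 and Apcdd1, which is on both lists, in the authors' deposited table. Msx2 had no JICD1 ratio and a control at the floor, and Ccn5 was at -3.42 and Ccn4 at -0.69 with JICD1. The common targets Myc (-0.35 with JICD1 and 0.01 with NICD1) and Ccnd1 (0.43 and -0.03) were near control in the authors' deposited tables. Myc and Ccnd1 are named here after their values were seen, as are Reck, Tspan12 and Celsr1.

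**Figure D4:**
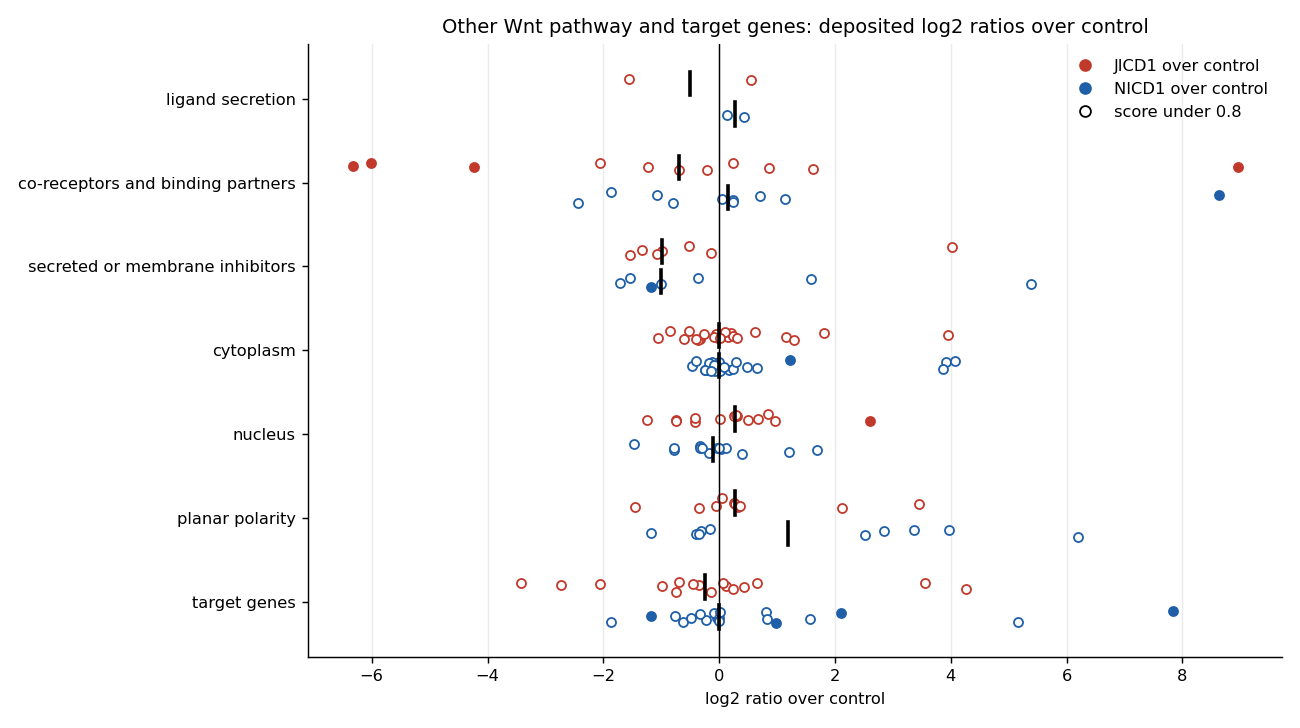
Deposited log2 ratio over control (x axis) of further Wnt pathway genes and of target genes, by list (rows), JICD1 in red above NICD1 in blue, with filled symbols for a score of 0.8 or more and black bars for medians. Medians lie near 0 for cytoplasmic and nuclear genes. The NICD1 median of the planar polarity genes is 1.19 and includes genes with a group inferred at the floor.

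Markers of other cell types also had ratios away from 0. For the calls below, the shares of all genes were 1.07% higher and 1.74% lower with JICD1, and 1.64% and 0.97% with NICD1. By sign, 8627 of 18971 genes lay below 0 with JICD1. With NICD1, 9926 of 19287 genes lay below 0 and 9361 above it. Of 10 fibroblast and pericyte markers, 7 of 7 with a JICD1 ratio lay below 0 (range -8.67 to -0.78, median -2.36, 5 called lower), and 5 of 8 lay below 0 with NICD1 (range -5.08 to 1.74, median -1.54, or -1.86 over the same 7, 2 called lower and 1 higher). Lum and Kcnj8 had no ratio. The value of -8.67 is that of Dcn, whose JICD1 group was inferred at the floor, so its size is not determined. Rgs5 had a ratio with NICD1 alone, with a control inferred at the floor, and is not among the 7. Microglia markers lay below 0 in 5 of 6 with JICD1 (median -1.70) and above 0 in 5 of 6 with NICD1 (median 0.88), with Tmem119 called lower with JICD1 (-8.48, score 0.962) in the authors' deposited table. Endothelial markers had medians of 0.83 with JICD1 and 1.00 with NICD1 over 6 genes, neuron markers 0.57 over 5 genes (1 called higher and 1 lower) with JICD1 and 3.35 over 4 genes (3 called higher and 1 lower) with NICD1, and oligodendrocyte markers 0.31 and 0.40 over 4 genes. Of 12 astrocyte markers 11 had a ratio, with medians of -0.59 for JICD1 and -0.69 for NICD1; Aqp4 had none, and Gfap stood at -1.36 (score 0.242) and -1.52 (score 0.261) in the authors' deposited tables. The called astrocyte markers went both ways: in the authors' deposited tables Nfia was higher with JICD1 (3.77, score 0.886), Clu lower with JICD1 (-3.88, score 0.930) and with NICD1 (-2.30, score 0.875), and Sox9 lower with NICD1 (-1.64, score 0.851). Groups were also inferred at the floor for the microglia marker Aif1 (JICD1), the oligodendrocyte marker Sox10 (JICD1 and NICD1) and the astrocyte marker Slc1a2 (control). The values are ratios and not levels, so the labelled cell type could not be checked against the abundance of its markers. The part of other cells in the Wnt ratios was not tested.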

How the data were processed

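Per the labels, RNA-seq was done on 3 JICD1, 3 NICD1 and 3 control libraries. The submitters' processing notes name Bowtie2, BWA and mm9, without role or version; counting and pooling are not given in the sources used here. Each of the 2 deposited tables holds, per the file headers, a log2 ratio of a transfected group over control and a score, headed Probability and running over 0 to 1, whose method is not stated. The deposited ratio and score were the planned measures, with a replicate test only if counts per library were given. The values used hold 1 ratio per gene, so no such test was run. The tables held 0 unused columns of per-sample values.

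Current symbols came from the gene IDs (NCBI and GENCODE vM21 names for GRCm38; 19658 of 20075 matched) and otherwise from the tables; 35 members carried a symbol in the tables and 16 were named from the ID. One gene ID, that of Lgr4, was unreadable and was matched by symbol. Members, lists and thresholds were chosen with earlier results of these data known. Members with a score of 0.8 or an absolute log2 ratio of 1 in either table were given with their ratios, and other pathway genes when called. Scores of members were printed for every call and for only some of the values that were not called.

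The tables mark no floor. Equal negative ratios in both tables (within 1e-06) were found for 694 genes, and an equal positive ratio for 1. A gene whose score lay within 0.002 of their curve (0.01 above a log2 ratio of 6), with an absolute ratio of 1 to 9.45, was inferred to have a group at the floor; a control called so in 1 table was taken so in both. Python 3.11.15 and pandas 2.3.3 were used.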

Additional observations from a re-analysis of the deposited data

How the results depend on the processing

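No paired analysis was possible because the deposited ratios are 1 per gene, without values of single libraries; for the same reason no library could be left out, and depth is unknown. With JICD1 the 6 called members (1 higher, 5 lower) became 15 (5 and 10) at a score of 0.7, 1 (0 and 1) at 0.9, and 23 (9 and 14) by an absolute log2 ratio of 1. With NICD1 the 9 (4 and 5) became 4 (2 and 2) at 0.9 and 27 (18 and 9) by the ratio. By a difference of 2 log2 units, the 20 members apart between the constructs became 11 (2 higher and 9 lower with JICD1). With symbols printed in the tables only, the median was -0.31 for JICD1, -0.0087 for NICD1 (a turn in sign) and -0.67 for their difference. Without genes at the floor it was 0.035 for NICD1 and -0.16 for the difference, and over genes of both tables it was -0.0087 for NICD1, also a turn in sign. Fewer or different genes enter these medians. In 41 other cases the counts and medians stayed within 1.5 times or 0.1 log2 units of the value in the text. Subtracting the median of all genes (0.05 for JICD1 and -0.02 for NICD1) turned the sign of none of the 15 called ratios.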
